A study of Mus musculus with 4 samples.

Results

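Integrins and laminins, the receptors and ligands that fasten cells to basement membranes, were followed through 6 RNA-seq libraries of mouse adipocyte progenitors. The members were taken by gene name alone: integrin alpha and beta chains numbered or lettered v, x, l, m, e or d, and numbered laminin alpha, beta and gamma chains. The 30 genes described, 20 integrins and 10 laminins, are among the 15906 genes listed in any of the 3 deposited tables. Itgal, Itgam, Itgax, Itgad and Itgae, alpha chains of leukocyte integrins, have the same form of name and no row in the tables. All libraries came from cultured cells of C57BL/6 mice, sorted with magnetic beads from the depots named SAT or VAT and given an adipogenic cocktail, and then treated with PBS or with dexamethasone (DEX, a synthetic glucocorticoid) at 1 µM. CD137+ cells were sorted for a receptor used to mark beige adipocyte precursors, and PDGFRα+ cells for a general progenitor marker. The labels give 1 sample for each of the 4 groups, CD137+ with PBS, CD137+ with DEX, PDGFRα+ with PBS and PDGFRα+ with DEX, and state neither age nor which depot each cell type came from. By its title the study concerned glucocorticoids, PDGFRα+ progenitors, visceral obesity and methylation of TEAD1.

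An integrin is a pair of 1 alpha and 1 beta chain spanning the membrane, and the alpha chain largely sets which matrix protein is bound. Integrins couple that contact to the actin cytoskeleton through talin, kindlins and vinculin. A laminin is a trimer of 1 alpha, 1 beta and 1 gamma chain, secreted into the basement membrane together with type IV collagen and nidogen. Mature adipocytes each lie within such a membrane, rich in the laminin alpha4 chain, whereas progenitors spread on fibronectin and fibrillar collagen.

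The values are FPKM (fragments by transcript length and library total) in 3 tables of 2 columns. The CD137+ and the PDGFRα+ table each pair DEX with PBS, and the between-type table pairs both DEX labels. Each DEX label thus occurs in 2 tables, with different values, and every column was kept as a library. The first CD137+ DEX and the first PDGFRα+ DEX library are those set beside PBS, and the second ones are those of the between-type table. Plots name the first ones by their own table. The labels do not say whether the columns of 1 label are separate cultures. The authors' sheet names add the number 1 to both columns of the CD137+ table, 2 to PDGFRα+ PBS, 1 to the first PDGFRα+ DEX column and 2 to both columns of the between-type table, and what these numbers mark is not stated. Each library listed 14208 to 15009 genes and its summed FPKM lay between 430997 and 449283. Depth is unknown, and levels from different tables are only roughly comparable. Genes induced by glucocorticoids did not follow the labels. Tsc22d3 (GILZ), which glucocorticoids switch on directly, had 112.7 FPKM in PDGFRα+ PBS and 30.2 and 121.7 in the first and second PDGFRα+ DEX libraries. It had 76.1 FPKM in CD137+ PBS and 38.5 and 28.7 in the first and second CD137+ DEX libraries. The sorting marker Pdgfra stood at 57.9 to 164 FPKM in the 6 libraries, lowest in the first PDGFRα+ DEX library. Tnfrsf9, the gene of CD137, was higher in the PDGFRα+ libraries (1.62 to 4.81 FPKM) than in the 1 CD137+ library that lists it (0.161 FPKM). Conditions and cell types below are therefore those of the labels, and with 1 library per group no difference has a replicate check or a p-value.

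**Figure D1:**
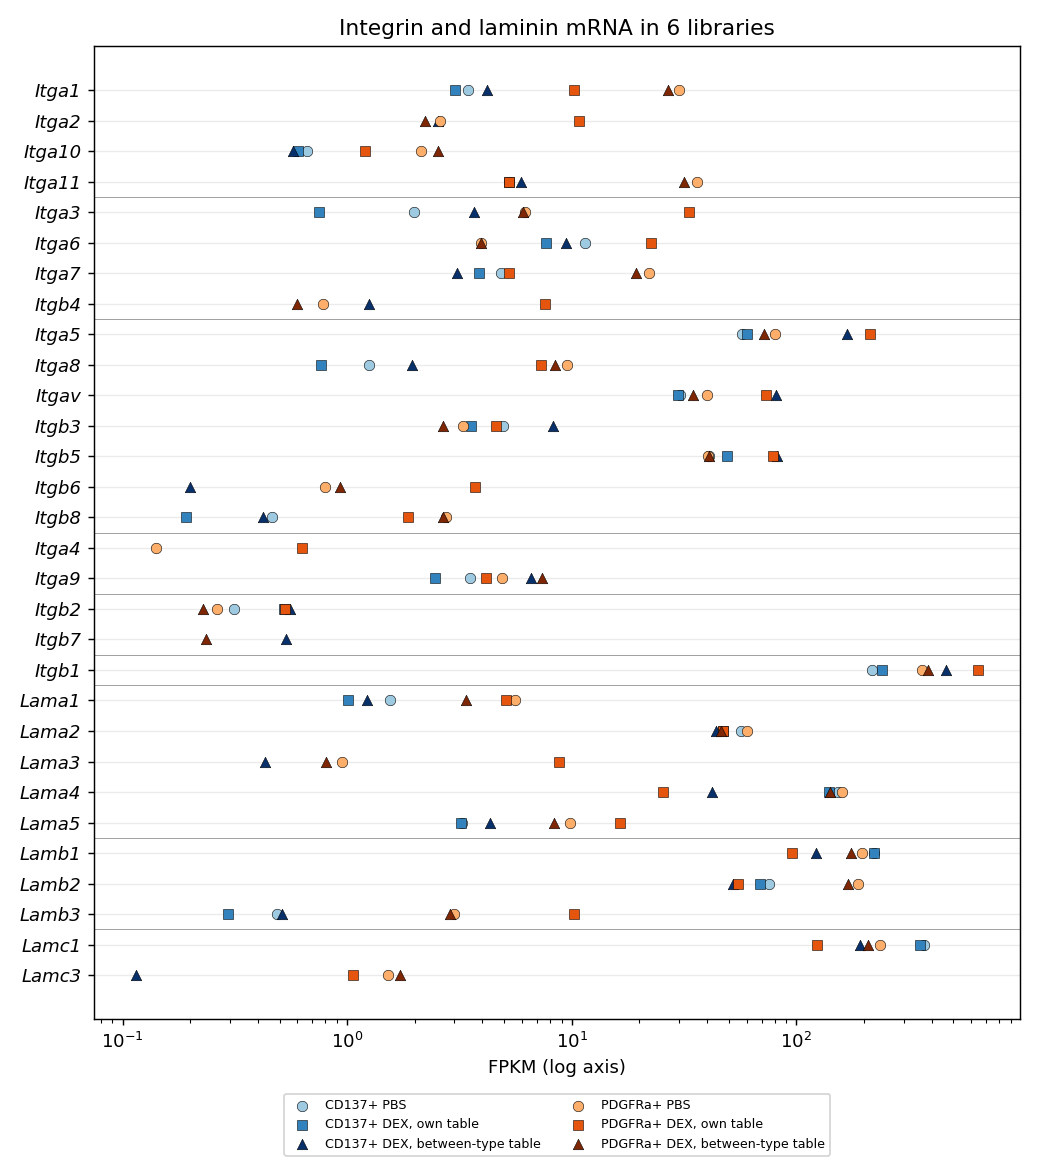
FPKM of 30 integrin and laminin genes (rows, grouped by ligand or chain) in the 6 libraries, on a log axis. Each point is 1 library, and a missing point means that the table does not list the gene. The first PDGFRα+ DEX library (orange squares) is at the right for Itga3, Itgb4, Lama3 and Lamb3 and at the left for Lama4 and Lamc1.

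The chains fell into an abundant core and a low fringe. Itgb1, the beta1 chain shared by most matrix receptors, was the highest integrin, with a median of 374 FPKM over the libraries. Among alpha chains Itga5, the fibronectin receptor chain, led with a median of 75.7 FPKM, followed by Itgav at 37.3. The highest laminin chains were Lamc1 (median 222 FPKM), Lamb1 (185), Lama4 (140), Lamb2 (72.2) and Lama2 (47.1). Lama4 or Lama2 with Lamb1 or Lamb2 and Lamc1 are the chains of the laminins of fat and muscle. Integrin chains of leukocytes were near the floor: Itgb2 stood at 0.227 to 0.554 FPKM, Itgb7 at 0.236 and 0.533 FPKM in the 1 table that lists it, and the lymphocyte chain Itga4 at 0.140 and 0.631.

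In CD137+ cells, the first library labelled DEX differed little from PBS, over all genes as in the members. None of the 19 members that reached 1 FPKM in either library was 2-fold apart on the log2(FPKM + 1) scale, where 1.04% of 12304 genes were (0.471% higher and 0.569% lower). Relative to the median gene there were none either (background 0.406% higher and 0.658% lower). The median log2 difference (DEX minus PBS) was -0.14 over the members and 0.05 over all genes. With the median difference set to 0, the median absolute difference was 0.196 over the members and 0.149 over all genes. The difference furthest from 0 was that of Itga3, a laminin receptor chain, at 1.98 FPKM with PBS and 0.747 with DEX (-0.77). Itga6, which pairs with beta1 or beta4 to bind laminin, stood at 11.4 and 7.66 FPKM (-0.52). Itga3 was the 1 member with q under 0.05 in the authors' deposited table (q = 0.0397), where 3.72% of genes had such a q.

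In PDGFRα+ cells, the first library labelled DEX held more mRNA of the fibronectin receptor chain Itga5, of the epithelial-type chains Lama3, Lamb3, Itgb4 and Itgb6, and of Itga2, Itga3 and Itga6. It held less of Lama4, Lamb1 and Lamb2, of the collagen receptors Itga1 and Itga11, and of Itga7. Of 27 members at 1 FPKM or more, 8 were 2-fold higher and 6 lower, against 15.5% and 7.71% of 13181 genes (23.3% in either direction). The typical gene lay 0.24 log2 units higher in this DEX library. Relative to that shift 8 members were higher and 7 lower (background 9.38% and 11.7%, together 21.1%), Lamc1 being added. The median difference of the members was -0.12, and that of all genes 0.25. The authors' deposited table gives 11 of 29 members with q under 0.05, 7 higher and 4 lower, and such a q for 15% of its genes. In bulk RNA, fewer cells of a type and less RNA per cell cannot be told apart.

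Between the cell types, the second PDGFRα+ DEX library held more of the collagen receptors Itga1, Itga10 and Itga11, of Itga7, Itga8 and Itgb8, and of Lama4, Lamb2, Lamb3 and Lamc3. The second CD137+ DEX library held more of Itga5, Itga6, Itgav and Itgb3. Of 25 members 10 were 2-fold higher and 4 lower in PDGFRα+ cells, against 9.25% and 11.5% of 12912 genes (20.7% in either direction). The typical gene lay at -0.22 log2 units (PDGFRα+ minus CD137+), and relative to that 12 members were higher and 2 lower (background 12.6% and 7.31%, together 19.9%). Lama1 and Lama5 were then added, and Itga6 and Itgav dropped out. Itga2, under 2-fold, changed sign relative to the median gene. The median difference was 0.59 over the members and -0.20 over all genes. The authors' deposited table gives 10 of 29 members with q under 0.05, all higher in PDGFRα+ cells, and such a q for 13.2% of its genes.

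**Figure D2:**
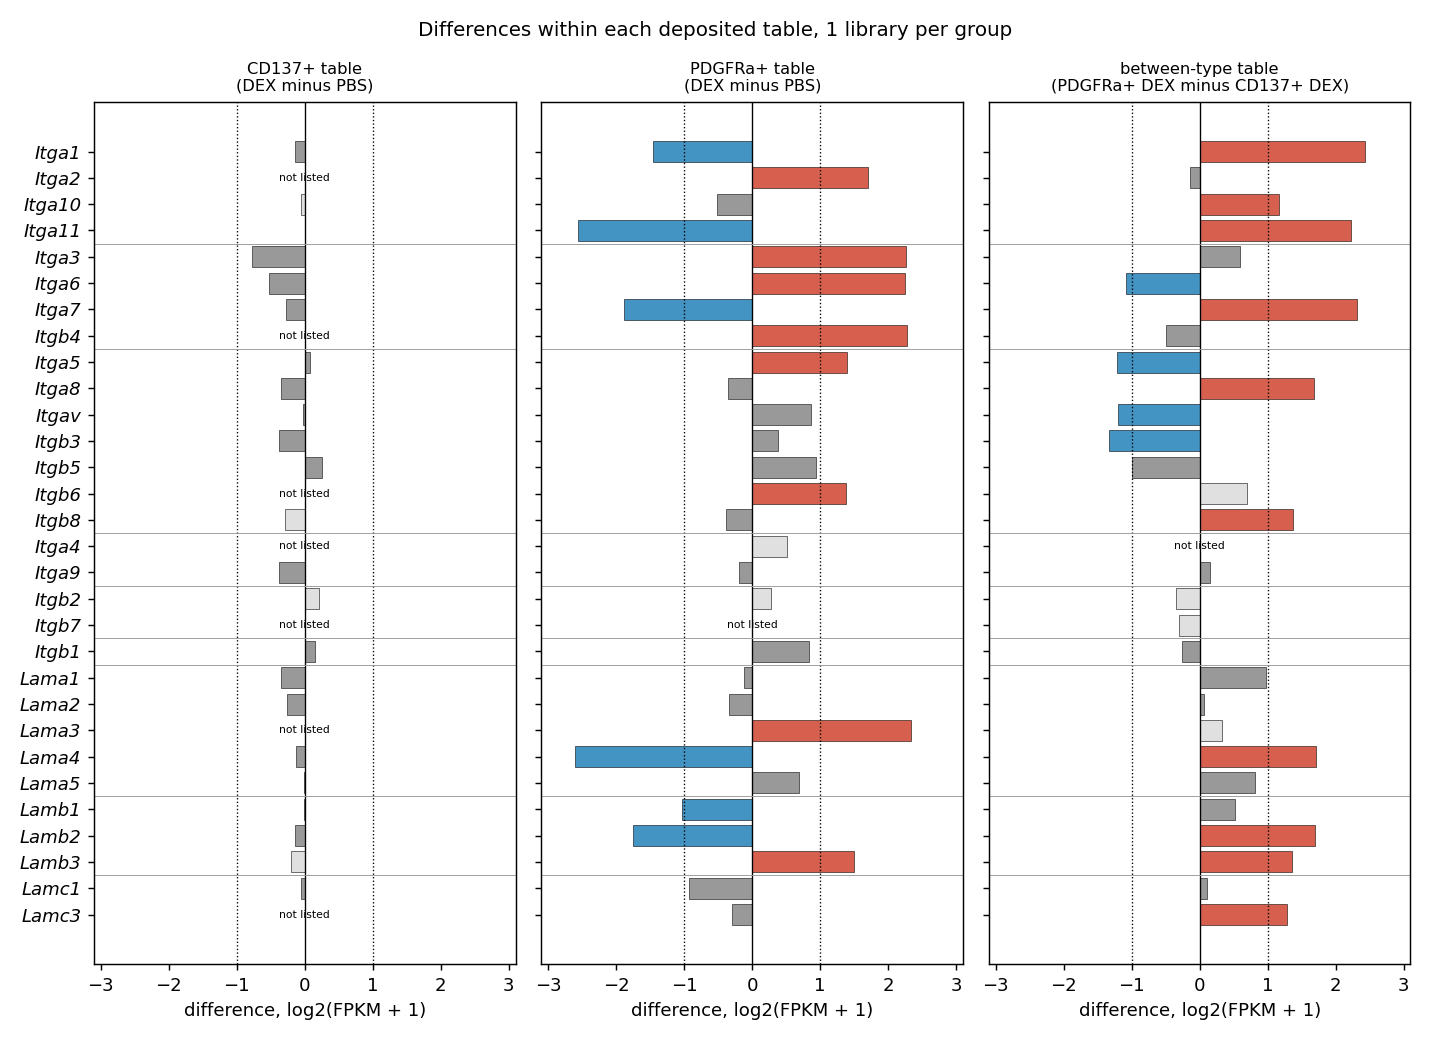
Difference of each member on the log2(FPKM + 1) scale within the 3 tables, with the direction given above each panel. Red and blue bars are at least 2-fold higher and lower with 1 FPKM or more in the higher library, dark grey bars are under 2-fold, light grey bars are under 1 FPKM, and dotted lines mark 2-fold. No bar of the CD137+ panel reaches a dotted line, whereas 14 bars of the PDGFRα+ panel and 14 of the between-type panel pass one.

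Below, 6 values are in the order CD137+ PBS, first and second CD137+ DEX, PDGFRα+ PBS, first and second PDGFRα+ DEX. Among the collagen receptors, Itga11, a receptor for fibrillar collagen typical of fibroblasts, stood at 5.25, 5.24, 5.94, 36.0, 5.27 and 31.5 FPKM. Only PDGFRα+ PBS and the second PDGFRα+ DEX library were high, and the first PDGFRα+ DEX library lay among the CD137+ libraries. Itga11 was 6.83-fold higher with PBS than in the first PDGFRα+ DEX library (log2 difference -2.56). Itga1, which binds type IV and other collagens, followed a similar order at 3.44, 3.02, 4.17, 29.9, 10.2 and 26.9 FPKM. All 3 PDGFRα+ libraries were above all 3 CD137+ libraries for Itga1, the first DEX library being the lowest of them. Itga2, the collagen receptor of platelets and epithelia, went the other way. The CD137+ table does not list it, and its level was 2.54 FPKM in the second CD137+ DEX library and 2.59, 10.7 and 2.22 FPKM in the PDGFRα+ ones. The first PDGFRα+ DEX library alone was high, at 4.15 times PBS. Itga1 and Itga2 are neighbours on mouse chromosome 13 (GRCm38, 114953096 to 115101964 and 114833081 to 114932100), 20995 bases apart with no protein-coding gene between. Itga10, a cartilage collagen receptor, was low at 0.659, 0.603, 0.572, 2.14, 1.20 and 2.53 FPKM, with the PDGFRα+ libraries above the CD137+ ones. Of its exon bases, 33.5% are shared with the annotated gene Gm42957, so that its value is uncertain.

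The 250 bases before the RefSeq start (GRCm38.p6) of Itga11 and Itga2 are shown on the strand of the gene, because these collagen receptors had opposite differences in the PDGFRα+ table. Capitals mark AGAACA, a glucocorticoid receptor half-site. It was searched on both strands, with GGAATG (TEAD) and TGANTCA (AP-1), in windows that run 50 bases past the start.
Itga11, chr9:62677605-62677854, plus strand: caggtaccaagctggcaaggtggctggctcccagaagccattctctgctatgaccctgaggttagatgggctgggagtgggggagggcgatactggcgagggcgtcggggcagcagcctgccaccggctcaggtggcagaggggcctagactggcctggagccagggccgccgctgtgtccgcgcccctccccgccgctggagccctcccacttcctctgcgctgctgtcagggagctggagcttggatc
Itga2, chr13:114932101-114932350, minus strand: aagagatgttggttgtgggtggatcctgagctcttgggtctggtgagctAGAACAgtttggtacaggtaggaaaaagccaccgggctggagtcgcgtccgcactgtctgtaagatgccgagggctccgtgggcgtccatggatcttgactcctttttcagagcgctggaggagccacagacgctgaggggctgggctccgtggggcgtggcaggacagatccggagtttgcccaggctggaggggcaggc
The Itga11 window held none of the 3 motifs and 68% G and C. The Itga2 window held 1 AGAACA starting 201 bases before the start and 59.3% G and C. AGAACA occurs in 19% of the 32851 windows of the table, so a single match is common. Of 2 windows of Itga3, 1 held TGANTCA, and the window of Lamb2 held none of the 3 motifs.

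Among the laminin receptors, Itga7, the laminin receptor of muscle, stood at 4.84, 3.85, 3.07, 22.0, 5.24 and 19.2 FPKM. As for Itga11, PDGFRα+ PBS and the second PDGFRα+ DEX library were high and the other 4 low, and PBS stood 4.20-fold above the first PDGFRα+ DEX library. Itga3, the laminin receptor of epithelia and many cultured cells, stood at 1.98, 0.747, 3.67, 6.19, 33.4 and 6.04 FPKM. The first PDGFRα+ DEX library was 5.40 times PBS, and all PDGFRα+ libraries were above all CD137+ libraries. Itga6 stood at 11.4, 7.66, 9.40, 3.96, 22.6 and 3.93 FPKM. Here the first PDGFRα+ DEX library was the highest of the 6 and the other PDGFRα+ libraries the lowest. Itgb4, the partner of Itga6 in the hemidesmosomes of epithelia, has no value in the CD137+ table. Its level was 1.25 FPKM in the second CD137+ DEX library and 0.781, 7.64 and 0.600 FPKM in the PDGFRα+ libraries, the first DEX library being 9.78 times PBS.

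Among the chains that read the RGD motif of fibronectin, vitronectin and latent TGF-beta, Itga5 stood at 57.2, 60.4, 167.9, 80.1, 213 and 71.4 FPKM. The first PDGFRα+ DEX and the second CD137+ DEX library stood apart from the other 4 on the high side. Itga5 in the first PDGFRα+ DEX library was 2.66 times PBS. Itgav had the same order of libraries in outline, at 30.2, 29.6, 81.1, 39.9, 73.6 and 34.7 FPKM, but its log2 difference in the PDGFRα+ table was 0.87 and short of 2-fold. Itgb5, its vitronectin receptor partner, stood at 40.8, 49.0, 82.4, 40.5, 78.9 and 40.8 FPKM. The same 2 libraries were high, with log2 differences of 0.94 (PDGFRα+ table) and -0.997 (between-type table), just under 2-fold. Itgb3, the other main partner of Itgav, stood at 4.93, 3.56, 8.22, 3.28, 4.59 and 2.68 FPKM. It was highest in the second CD137+ DEX library and 2-fold lower in the second PDGFRα+ DEX library (-1.33). Itgb6, an epithelial chain that activates TGF-beta, stood at 0.800, 3.70 and 0.934 FPKM in the PDGFRα+ libraries and 0.199 FPKM in the second CD137+ DEX library. Itga8 and Itgb8, chains of mesenchymal and TGF-beta binding receptors, were low in CD137+ libraries and higher in all PDGFRα+ ones. Itga8 stood at 1.25, 0.766, 1.94, 9.55, 7.28 and 8.42 FPKM. Itgb8 stood at 0.461, 0.193, 0.422, 2.74, 1.86 and 2.67 FPKM. Itga9, a receptor for tenascin and osteopontin, varied between 2.46 and 7.40 FPKM and was under 2-fold apart in every table.

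Itgb1 stood at 216, 239, 464, 361, 646 and 386 FPKM. It was highest in the first PDGFRα+ DEX library, yet no table put it 2-fold apart (log2 differences 0.15, 0.84 and -0.26). The alpha chains that can pair with it summed to 114 to 387 FPKM, and the ratio of Itgb1 to that sum lay between 1.52 and 2.09 in the 6 libraries. Itgb1 made up 81.8% to 88.9% of all beta chain FPKM.

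Among the laminin alpha chains, Lama4, the chain of vessel and adipocyte basement membranes, stood at 153, 139, 42.2, 160, 25.4 and 141 FPKM. The first PDGFRα+ DEX and the second CD137+ DEX library were low and the other 4 close together. PBS stood 6.27-fold above the first PDGFRα+ DEX library (log2 difference -2.60). Lama2, the chain of muscle and nerve, varied little, from 43.9 to 60.1 FPKM. Lama5, widespread in epithelial and vessel membranes, stood at 3.25, 3.21, 4.33, 9.82, 16.4 and 8.35 FPKM, and Lama1, an embryonic chain, at 1.56, 1.01, 1.23, 5.61, 5.10 and 3.37 FPKM. Both were higher in all PDGFRα+ than in all CD137+ libraries, with neither 2-fold apart by dexamethasone label. Lama3, the alpha chain of the epithelial laminin that anchors hemidesmosomes, has no row in the CD137+ table. Its level was 0.432 FPKM in the second CD137+ DEX library and 0.945, 8.79 and 0.803 FPKM in the PDGFRα+ libraries, the first DEX library being 9.30 times PBS.

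Among beta and gamma chains, Lamb2 stood at 75.8, 68.5, 52.0, 188, 55.2 and 170 FPKM. It is the beta chain of muscle, kidney and vessel membranes, and only PDGFRα+ PBS and the second PDGFRα+ DEX library were high. Lamb1, the more widespread beta chain, stood at 223, 222, 122, 196, 95.2 and 175 FPKM and Lamc1, the common gamma chain, at 371, 357, 193, 236, 124 and 208 FPKM. Both were lowest in the first PDGFRα+ DEX library. Lamb1 was 2.06-fold and Lamc1 1.91-fold higher with PBS there. Lamb3, a beta chain of epithelial laminin, stood at 0.487, 0.295, 0.515, 2.97, 10.2 and 2.88 FPKM. Again 1 library, the first PDGFRα+ DEX one, was alone on the high side, at 3.43 times PBS. Lamc3, a gamma chain of nerve and retina, stood at 0.115 FPKM in the second CD137+ DEX library and at 1.53, 1.06 and 1.72 FPKM in the PDGFRα+ libraries.

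**Figure D3:**
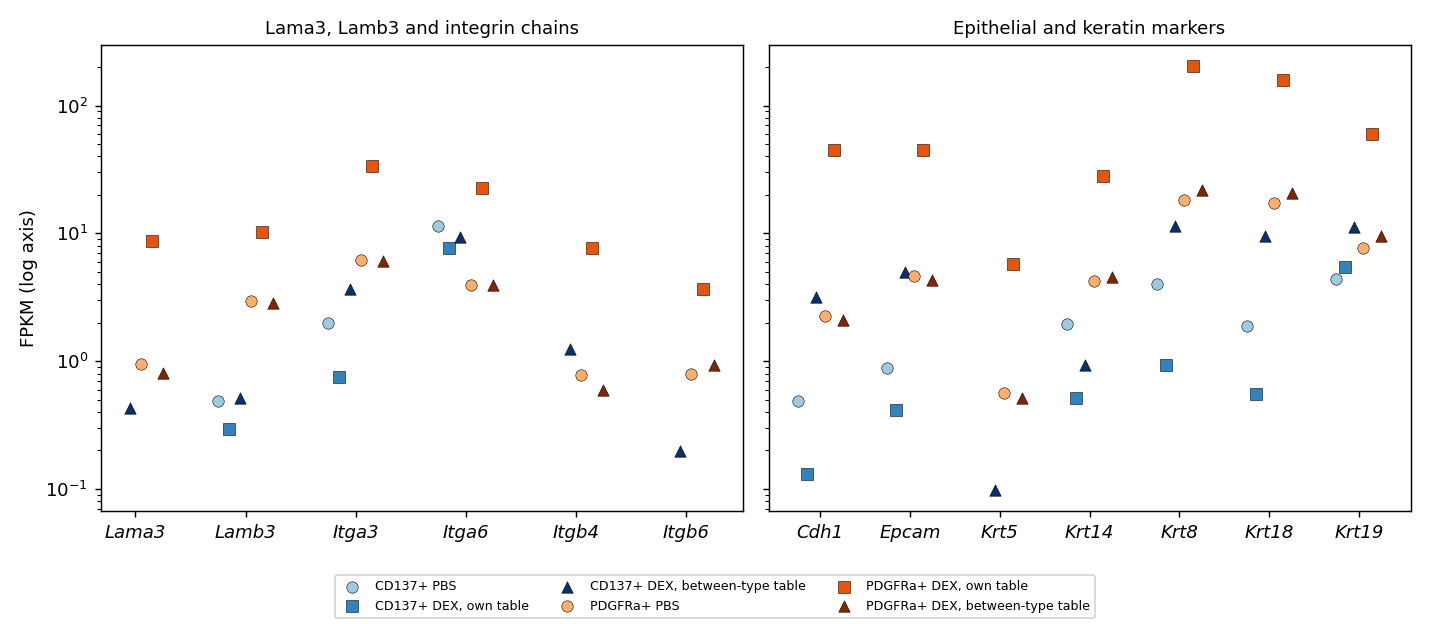
FPKM (log axis) of Lama3, Lamb3 and 4 integrin chains at the left and of epithelial and keratin markers at the right, each point 1 library. The first PDGFRα+ DEX library (orange squares) is the highest point in all 13 columns, for example at 10.2 FPKM for Lamb3 and 45.1 FPKM for Cdh1. The columns were picked by hand, so their common order is no test. Krt8, Krt18 and Krt19 are from the mesothelial list, whose other genes, Wt1, Msln, Upk3b and Lrrn4, were lower in that library than with PBS.

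Markers of other cells also differed in the first PDGFRα+ DEX library, some lists upward, some downward and some in both directions. The 4 epithelial markers, Cdh1, Epcam, Krt5 and Krt14, summed to 124 FPKM in the first PDGFRα+ DEX library and to 1.06 to 11.7 FPKM in the other 5. All 4 were 2-fold higher there than with PBS, as Cdh1, the epithelial cadherin, at 2.24 and 45.1 FPKM, and Epcam at 4.64 and 45.0 FPKM. Between those libraries 15.5% of all genes were higher and 7.71% lower (relative to the shift 9.38% and 11.7%). Of 7 mesothelial markers 3 were higher, the keratins Krt8 (18.2 and 205 FPKM), Krt18 and Krt19, and 2 lower, among them Wt1 (44.2 and 15.9 FPKM). The summed mesothelial markers spanned 6.92 to 452 FPKM. Mural and smooth muscle markers had 3 of 8 higher, Acta2, Mcam and Cspg4, and summed to 180 to 2046 FPKM, highest in the first PDGFRα+ DEX library. In every library most of that sum was the 1 gene Acta2, at 166 to 1808 FPKM. Progenitor markers had 5 of 6 lower and summed to 480 to 2347 FPKM, lowest in the first PDGFRα+ DEX library. Adipocyte markers, led by Fabp4, had 3 of 4 lower and summed to 70.7 to 2085 FPKM. Of 7 endothelial markers measured 1 was higher and 1 lower (relative to the shift 1 and 3), and the list of 9 summed to 11.4 to 31.0 FPKM. Leukocyte markers summed to 34.3 FPKM in the first PDGFRα+ DEX library, of which S100a8 made 22.3, and to 7.95 to 10.5 FPKM elsewhere. The pan-leukocyte gene Ptprc was listed at 0 in PDGFRα+ PBS and stood at 0.505 FPKM in that DEX library. Between the second DEX libraries, 1 of 3 measured epithelial, 5 of 7 mesothelial, 5 of 6 progenitor and 4 of 4 adipocyte markers were higher in the PDGFRα+ library (background 9.25% higher and 11.5% lower). Of the 8 mural and smooth muscle markers 3 stood higher there, namely Des, of the muscle intermediate filament desmin (5.68 and 103 FPKM), the smooth muscle myosin Myh11 (4.97 and 26.7 FPKM) and the pericyte gene Kcnj8 (0.176 and 2.49 FPKM), while Cspg4 alone was lower (4.19 and 1.38 FPKM), and none of the 8 was lower relative to the shift. Of 8 endothelial and 3 leukocyte markers measured, none was 2-fold apart there (relative to the shift 1 endothelial marker was higher). With PBS, summed adipocyte (2085 and 763 FPKM) and progenitor markers (2071 and 1621 FPKM) were instead higher in CD137+ than in PDGFRα+ cells. In the first DEX libraries the adipocyte markers summed to 1566 and 70.7 FPKM. Epithelial, mesothelial and mural sums with PBS were higher in PDGFRα+ than in CD137+ cells. Between the second DEX libraries, the epithelial and mesothelial sums kept this order. The mural sum did not, with 719 FPKM (CD137+) against 608 FPKM (PDGFRα+). Within CD137+ cells, 3 of 8 endothelial markers and 1 of 3 mesothelial markers were lower in the first DEX library, as were 0.569% of all genes. The part of these cells in the integrin and laminin differences was not tested.

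**Figure D4:**
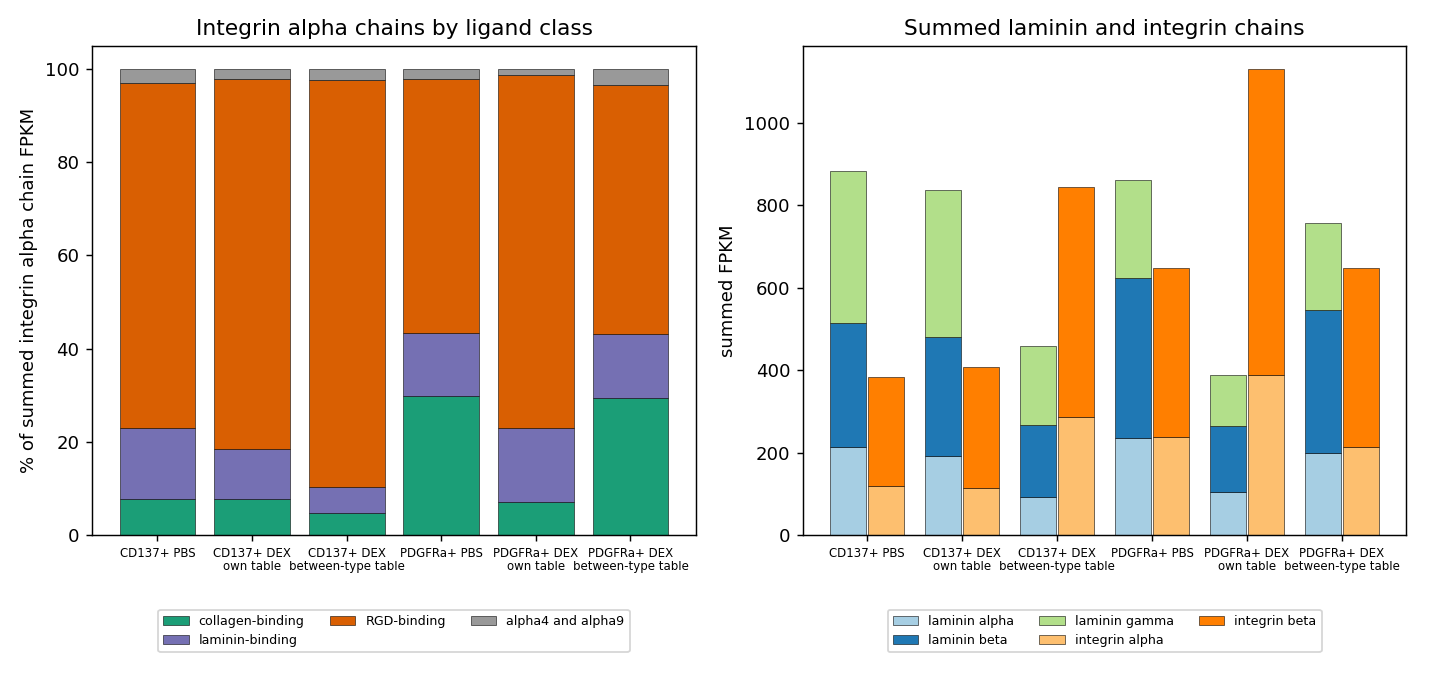
Left, share of summed integrin alpha chain FPKM taken by collagen-binding, laminin-binding (Itga3, Itga6, Itga7), RGD-binding (Itga5, Itga8, Itgav) and alpha4 and alpha9 chains in each library. Right, summed FPKM of the 10 laminin and 20 integrin genes as stacked bars. Collagen-binding chains take 29.8% and 29.5% in PDGFRα+ PBS and the second PDGFRα+ DEX library and at most 7.81% in the other 4, and integrins exceed laminins only in the second CD137+ DEX and the first PDGFRα+ DEX library.

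Because FPKM is per length, levels of chains can be summed. Collagen-binding chains took 29.8% of all alpha chain FPKM in PDGFRα+ PBS and 29.5% in the second PDGFRα+ DEX library, but 7.08% in the first and 4.61% to 7.81% in CD137+ libraries. RGD-binding chains took 54.6%, 75.9% and 53.4% in PDGFRα+ PBS and its first and second DEX libraries, and 74.0% to 87.5% in CD137+ cells. The 10 laminin genes summed to 884, 838, 459.6, 861, 388 and 757 FPKM and integrin chains to 383, 407, 844, 647, 1131 and 648 FPKM. The ratio of laminin to integrin FPKM was thus 2.31, 2.06, 0.54, 1.33, 0.34 and 1.17. It was below 1 in the second CD137+ DEX and the first PDGFRα+ DEX library alone. Within the laminin alpha chains, Lama4 made 67.6% in PDGFRα+ PBS and 24.7% in the first DEX library, where Lama2 made 45.9%, Lama5 15.9% and Lama3 8.52%. Lama3 and Lamb3 together made 4.89% of that laminin sum in that library and 0.206% to 0.486% in the second CD137+ DEX and the other PDGFRα+ libraries. In CD137+ PBS and the first CD137+ DEX library, where Lama3 has no row, Lamb3 alone made 0.0551% and 0.0352%.

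The genes around integrins and laminins were described by lists. In the first PDGFRα+ DEX library 15.5% of all genes were 2-fold higher than with PBS and 7.71% lower (relative to the shift 9.38% and 11.7%). Of 31 integrin adaptors and kinases 10 were 2-fold higher and none lower in the first PDGFRα+ DEX library (median 0.74; relative to the shift 4 higher and 3 lower). They included Fermt1, the epithelial kindlin (1.24 and 11.4 FPKM), Zyx, a focal adhesion protein (57.1 and 176 FPKM), and the actin crosslinker Actn1 (90.5 and 274 FPKM). Of 17 integrin ligands other than laminins 6 were higher and 1 lower, among them osteopontin, Spp1 (140.5 and 2151 FPKM), tenascin C, Tnc (25.6 and 165.9 FPKM), and Thbs2 (32.2 and 189 FPKM). Of 19 basement membrane partners 1 was higher and 6 lower (median -0.75; relative to the shift 1 higher and 8 lower), such as nidogen 2, Nid2 (79.5 and 16.2 FPKM), fibulin 1, Fbln1 (113 and 15.8 FPKM), and Col15a1 (80.1 and 18.8 FPKM). Of 11 laminin receptors that are no integrins 2 were higher, Sdc1 (21.8 and 75.9 FPKM) and Bcam (13.3 and 33.7 FPKM), and 1 lower, the sarcoglycan Sgcd (12.2 and 4.28 FPKM). Once the shift is taken off, 2 were on each side.

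In the CD137+ table the same lists had 0 members 2-fold apart among 28 adaptors, 16 basement membrane partners and 11 laminin receptors, and 1 of 16 ligands, Cyr61, a matricellular ligand of integrins (68.7 and 319 FPKM). Of all genes 0.471% were higher and 0.569% lower in that table. Between the second DEX libraries, 12 of 19 basement membrane partners were higher in the PDGFRα+ library and 1 lower (median 1.58). Of all genes 9.25% were higher and 11.5% lower. Nid2, for example, had 14.3 FPKM in the second CD137+ and 80.5 FPKM in the second PDGFRα+ DEX library. It had 56.4 and 79.5 FPKM in CD137+ and PDGFRα+ PBS, but 47.2 and 16.2 FPKM in their first DEX libraries. Of 18 ligands 9 were lower and 2 higher in the second PDGFRα+ DEX library (median -1.09), led by Thbs2 (610 and 27.8 FPKM) and Tnc (224 and 18.8 FPKM). Thbs2 was also lower in PDGFRα+ than in CD137+ cells with PBS (32.2 and 316 FPKM) and in the first DEX libraries (189 and 397 FPKM). Tnc was not: it stood at 25.6 and 32.3 FPKM with PBS and at 166 and 23.0 FPKM in the first DEX libraries. Of 30 adaptors 3 were higher and 4 lower in the second PDGFRα+ than in the second CD137+ DEX library, and of 11 laminin receptors 1 each way. Relative to the shift these counts were 3 and 2 for the adaptors, and 4 higher and 1 lower for the laminin receptors. The background was then 12.6% higher and 7.31% lower.

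**Figure D5:**
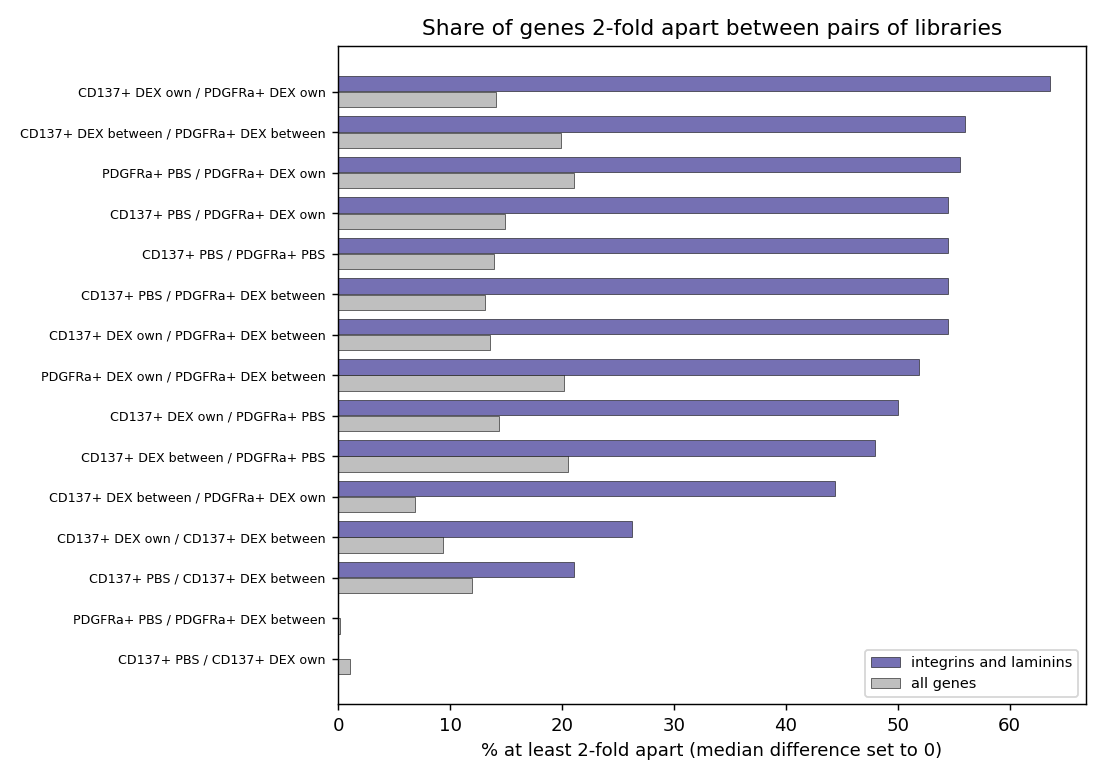
Share of integrin and laminin genes (purple) and of all genes (grey) at least 2-fold apart on the log2(FPKM + 1) scale in each of the 15 pairs of libraries, after the median difference was set to 0. The members show 0% in CD137+ PBS against the first CD137+ DEX library and in PDGFRα+ PBS against the second PDGFRα+ DEX library, and 21.1% to 63.6% in the other 13 pairs.

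Columns of the same label differed in these genes. The pairs below were compared after the other results had been seen. Between the first and second PDGFRα+ DEX libraries 14 of 27 members were 2-fold apart once the median difference was 0, where 20.2% of all genes were. Between PDGFRα+ PBS and the second PDGFRα+ DEX library 0 of 24 were (background 0.169%). Between the first and second CD137+ DEX libraries 5 of 19 were (background 9.34%): Itga3, Itga5, Itga9 and Itgav were higher in the second and Lama4 lower. The first PDGFRα+ and the second CD137+ DEX library had 6.86% of all genes apart, yet 12 of 27 members, each higher in PDGFRα+ cells. Members 2-fold apart numbered 12 of 22 between CD137+ PBS and PDGFRα+ PBS (background 13.9%), and 12 of 22 each between CD137+ PBS and the first and second PDGFRα+ DEX libraries (background 14.9% and 13.1%). The first CD137+ DEX library had 11, 14 and 12 of 22 apart from PDGFRα+ PBS and its first and second DEX libraries (background 14.4%, 14.1% and 13.6%). The second CD137+ DEX library had 12 of 25 apart from PDGFRα+ PBS (background 20.5%), 14 of 25 from the second PDGFRα+ DEX library (19.9%) and 4 of 19 from CD137+ PBS (12%). In every pair of 1 PDGFRα+ and 1 CD137+ library, more members were higher in the PDGFRα+ library than lower. Members at 1 FPKM or more in PDGFRα+ libraries alone, such as Itga10, Itgb8 and Lamb3, could only be called higher. The pairs reuse the same 6 libraries, and the shares of all genes given here are for both directions together. For most pairs the split of all genes by direction was not taken, so nothing is drawn from the direction of the members. For the second DEX libraries that split was 12.6% higher and 7.31% lower in the PDGFRα+ one. The 12 members apart between the first PDGFRα+ and the second CD137+ DEX library were Itga1, Itga2, Itga3, Itga6, Itga8, Itgb4, Itgb6, Itgb8, Lama1, Lama3, Lama5 and Lamb3.

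The order of the 6 libraries was set beside the label of cell type. Of 19 members listed in all libraries and at 1 FPKM or more in at least 1 library of each cell type, 6 stood higher in all 3 PDGFRα+ than in all 3 CD137+ libraries: Itga1, Itga3, Itga7, Itga8, Lama1 and Lama5 (background 8.2% of 12193 genes). None stood lower in all 3 (background 10.3%). With the median difference between libraries set to 0, 5 stood higher (background 10.9%), Itga7 dropping out, and none lower (background 8.29%). Itga10, Itgb8 and Lamb3 had the same order, but reached 1 FPKM in PDGFRα+ libraries alone and are not counted. The groups are made of 2 DEX libraries and 1 PBS library each and are no replicates.

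Of the 30 members 20 had a promoter window in the RefSeq table, with 23 windows in all. GGAATG occurred in 3 of these windows (13%) and in 14.7% of all windows, TGANTCA in 2 (8.7% against 7.81%) and AGAACA in 5 (21.7% against 19%). The stretches with GGAATG are shown because the study is about TEAD1, with 30 bases on each side and the motif or its reverse complement in capitals.
Itgb1, chr8:128685617-128685682, plus strand: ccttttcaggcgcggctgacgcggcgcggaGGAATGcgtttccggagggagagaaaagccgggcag
Lamb3, chr1:193302046-193302111, plus strand: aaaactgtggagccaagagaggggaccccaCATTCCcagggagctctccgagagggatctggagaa
Itga10, chr3:96645479-96645544, plus strand: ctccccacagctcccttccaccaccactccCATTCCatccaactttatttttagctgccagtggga
The motif begins 7 bases before the start of Itgb1, 167 bases before that of Lamb3 and 75 bases before that of Itga10, and a match of letters is a description and not a binding site. Of these genes Lamb3 was 2-fold apart in the PDGFRα+ table, and Itgb1 and Itga10 were not.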

How the data were processed

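Per the labels' protocols, Trizol RNA went into Illumina TruSeq libraries. Per the submitters' processing notes, which give no versions, Cufflinks and Cuffdiff were used with mm10. The aligner and the annotation are not stated there. In each table the authors deposited 2 FPKM columns, with the log2 ratio of the columns and a p-value and q-value per gene, per the file headers. Since a comparison holds 1 library a side, p and q are printed only as deposited. Every FPKM column was mapped to a sample by name, and 0 were left over.

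Differences were taken on the log2(FPKM + 1) scale, where those of low genes come out too small, and called apart at 2-fold with 1 FPKM or more in the higher library. This rule was tested on simulated data, with changes set only in genes well above 1 FPKM and a small assumed noise. Changes in low chains were thus not covered. Low FPKM showed no steps of whole reads: of 349 to 422 genes above 0 and under 0.5 FPKM in both libraries of a table, at most 3 shared a ratio to 3 decimals. No member was listed at 0. Values were recomputed with other pseudocounts, minimums, thresholds and scalings, the deposited ratio and the other DEX column of the same label. Companion lists are hand-written. The members and lists were chosen with earlier results of these data known. Of the 31 genes that match the name rule, 1 is not reported here and entered no count, sum or plot of the members. Values in every library were due for members 2-fold apart in any table or among the 5 highest alpha, 3 highest beta and 5 highest laminin chains, and from each companion list up to 3 genes with the largest differences. Promoter windows were planned for up to 4 members with the largest differences in the PDGFRα+ table. They were taken from those with a RefSeq window outside chromosome 18. This leaves out Lama3, which lies on chromosome 18, and Lama4, Itga6, Itga7 and Itgb4. Of these windows 2 are shown, and the GGAATG stretches were added after the matches were seen. Coordinates are those of GENCODE M21 (GRCm38). No protein sequences were used here. The cell-type order and library pairs were added after the other results were seen. The TruSeq kit's strand setting is not stated. Besides Itga10, members share at most 8.04% of exon bases with another gene. Software: pandas 2.3.3, numpy 2.4.6 and matplotlib 3.10.9 under Python 3.11.15.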

Additional observations from a re-analysis of the deposited data

Results flagged for a closer look

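Of the 23 integrin and laminin genes listed in both the CD137+ and the PDGFRα+ table, 3 (13%) were 2-fold apart in 1 of them and differed the opposite way in the other, as did 8.35% of the 13540 genes listed in both. Itga3 had a log2 difference (DEX minus PBS) of -0.77 in CD137+ and 2.26 in PDGFRα+ cells, a gap of 3.03. Itga6 had -0.52 and 2.25, a gap of 2.77. Lamb3 had -0.20 and 1.49, a gap of 1.69, with under 1 FPKM in both CD137+ libraries. With 1 library per group the difference between cell types was not tested, and with the second PDGFRα+ DEX library in place of the first, and the median difference set to 0, the 3 values in PDGFRα+ cells were -0.061, -0.039 and -0.067. With the second CD137+ DEX library in place of the first, the values in CD137+ cells were 0.52 for Itga3, -0.39 for Itga6 and -0.10 for Lamb3, so that Itga3 no longer differed the opposite way.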

How the results depend on the processing

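No paired analysis was possible because each group has 1 sample and the results come from no test. Members depended on which DEX column was used, with the median difference across tables set to 0. With the second PDGFRα+ DEX library, 0 members were 2-fold higher and 0 lower than PBS; Itga2 (-0.19), Itga3 (-0.061), Itga5 (-0.19), Itga6 (-0.039), Itgb4 (-0.19), Lama3 (-0.14) and Lamb3 (-0.067) then changed sign, as did 8 members under 2-fold with either library. With the second CD137+ DEX library 2 members were higher than PBS, Itga5 and Itgav, and 2 lower, Lama4 and Lamc1; Itgav changed sign to 1.27, as did 7 members under 2-fold with either library, among them Itga3 (0.52) and Itga9 (0.62). With the first DEX libraries of both cell types, members 2-fold apart with either pair that changed sign were Itga11 (-0.069), Lama4 (-2.49), Lamb1 (-1.29), Lamb2 (-0.38), Lamc1 (-1.60), Itga5 (1.73), Itga6 (1.37), Itgav (1.21), Itgb1 (1.35) and Itgb3 (0.22), beside Itgb5 (0.60) and Lama2 (-0.063) under 2-fold with both pairs, and 11 members were higher and 3 lower. Under the other settings no member that was 2-fold apart changed sign. For CD137+ cells 1 member was lower with a pseudocount of 0.1 FPKM, at 1.5-fold or by the deposited ratio. For PDGFRα+ cells 4 were higher and 2 lower at 4-fold, and 5 higher with a minimum of 10 FPKM. Between the cell types 5 were higher and 2 lower with a pseudocount of 5 FPKM or a minimum of 10 FPKM, 3 and 0 at 4-fold, and 2 or 1 lower with median or upper-quartile scaling. Over the 8 settings that give values of single members, 571 of 641 kept their call, whatever the sign of those under 2-fold. This total includes changes of the minimum, which leave the differences themselves as they were. With the other DEX column alone 41 values kept their call, 18 were reversed, 9 became weaker and 6 stronger. With 1 FPKM required in any library, 9 members stood higher in all PDGFRα+ than in all CD137+ libraries, a setting added after seeing the data. The members added by it, Itga10, Itgb8 and Lamb3, reached 1 FPKM in PDGFRα+ libraries alone and could be counted only in that direction. The share of all genes was not taken under this setting, so nothing is drawn from this count. Depth is unknown, so the counting error of low chains cannot be given.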
